A study of Mus musculus with 21 samples.

Results

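Cxcl12, Cxcr4, Cxcl16 and Cxcr6 are 2 chemokine and receptor pairs of the mouse, and they make up 4 of the 770 genes of an immune panel that was counted in lung RNA. They were chosen by name, over all 21 libraries of the raw count table, when the difference between dust extract and saline was already known for this panel. For that reason the dust contrast of these 4 genes is given as a description without a test. Tests are given for the carcinogen, its interaction with dust, sex, instrument run and the relation of ligand to receptor.

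The study asked how 24 weeks of agricultural dust exposure, with or without a tobacco carcinogen, alters the lung. All mice were A/J, an inbred strain that readily develops lung tumors, of both sexes and 8 to 12 weeks old when received. Under light isoflurane anesthesia they received 50 µL of 12.5% hog dust extract (HDE), made from settled dust of indoor swine barns that was taken up in a balanced salt solution, cleared, filtered and diluted, or of phosphate-buffered saline into the nose 3 times a week. For the panel the study drew 24 lungs at random from larger groups, and 21 passed its normalization. Of the HDE mice among these 21, 5 also received NNK (HDE + NNK) and 4 did not (HDE only). Of the saline mice, 6 received NNK and 6 did not, and each animal gave 1 library. NNK, a nitrosamine of tobacco, was injected once into the peritoneum at 100 mg/kg in week 4, and mice without NNK were injected with saline by that route. In a later experiment, which the study pooled with the first, control mice also received ethanol in saline by tail vein, and the labels do not tell these animals apart. Lungs had been lavaged before the left lung was taken, and tumors were counted and cut out of it. The washed-out airspace cells and the tumors that were cut out are thus not part of this RNA. Whether any remained was not measured.

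Chemokines are small secreted proteins that guide cells along a gradient through receptors of the G-protein-coupled family. Cxcl12 is made mainly by stromal and endothelial cells and, through Cxcr4, holds hematopoietic cells and neutrophils in the bone marrow and draws lymphocytes, fibrocytes and many tumor cells into tissues. Cxcl16 is unusual in that it is made as a protein anchored in the membrane of macrophages, dendritic cells and epithelium, where it also takes up oxidized lipoprotein, and it is released by metalloproteases. Its receptor Cxcr6 marks natural killer T cells and the T cells that reside in the lung and other barrier tissues.

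The start regions of the receptors and of Cxcl12 are shown as a description, and a link between their bases and the dust values was not tested. RefSeq's promoter table (GRCm38.p6) matched 3 of the 4 genes, Cxcl12, Cxcr4 and Cxcr6, and Cxcl16 had no entry in it. Each run is the 250 bases before the start of the gene, 5′ to 3′ on the strand of the gene, and capitals mark matches to the motifs searched. The window of Cxcl12 is chr6:117168285-117168534 on the plus strand, that of Cxcr4 is chr1:128592300-128592549 on the minus strand, and that of Cxcr6 is chr9:123806227-123806476 on the plus strand.
Cxcl12: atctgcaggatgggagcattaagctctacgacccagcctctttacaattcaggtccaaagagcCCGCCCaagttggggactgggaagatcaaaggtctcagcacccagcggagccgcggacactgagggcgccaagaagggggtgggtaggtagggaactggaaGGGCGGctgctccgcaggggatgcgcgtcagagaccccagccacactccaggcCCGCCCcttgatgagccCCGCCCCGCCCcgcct
Cxcr4: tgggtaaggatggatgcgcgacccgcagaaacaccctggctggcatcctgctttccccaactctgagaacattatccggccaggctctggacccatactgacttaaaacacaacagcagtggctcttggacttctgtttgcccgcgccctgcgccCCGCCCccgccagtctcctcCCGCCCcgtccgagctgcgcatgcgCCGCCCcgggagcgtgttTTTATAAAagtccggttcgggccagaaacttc
Cxcr6: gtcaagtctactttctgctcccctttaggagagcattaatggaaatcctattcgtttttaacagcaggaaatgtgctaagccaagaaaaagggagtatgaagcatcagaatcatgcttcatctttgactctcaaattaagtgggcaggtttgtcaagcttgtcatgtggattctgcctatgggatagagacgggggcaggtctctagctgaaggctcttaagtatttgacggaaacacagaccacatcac
Bases G and C made up 64.4% of the Cxcl12 window, 61.2% of the Cxcr4 window and 43.6% of the Cxcr6 window, against a median of 52.4% over all 32851 windows of the table. Searched on both strands were the GC box (GGGCGG), the TATA box (TATAAA), the AP-1 site (TGANTCA), the STAT site (TTCNNNGAA), the ACGTG form of the hypoxia response element and the NF-kB site. The GCGTG form of that element was not searched for, and its letters occur in the Cxcr4 window. GC boxes were found 5 times before Cxcl12, 2 of them overlapping, and 3 times before Cxcr4. Cxcr4 also held the TATA box letters as 2 overlapping matches on opposite strands, which begin at -32 and -30 from the start. Of all windows, 32.7% held a GC box and 12.4% a TATA box. The AP-1, STAT, ACGTG and NF-kB letters, present in 6.75%, 7.02%, 16.6% and 7.25% of all windows, were in none of these 3 windows. The Cxcr6 window held no match to any of the 6 motifs searched. A match is a description of letters and not a site at which a factor was measured.

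The panel was read on a digital counter that tallies color-coded probe pairs bound to single transcripts without amplification. Total gene counts ran from 174604 to 529829 per library, and the mean of the 8 negative control probes from 7.75 to 27.6 counts. Libraries came from 2 instrument runs, as their column names show, and run 1 held 4 HDE + NNK, 2 HDE only, 4 saline + NNK and 2 saline only lungs against 1, 2, 2 and 4 in run 2. Negative controls averaged 24.3 counts in run 1 and 12.4 in run 2. The saline only library of run 2 lane 3 carried an instrument quality mark, and an earlier analysis of these data placed the library of run 2 lane 12 (HDE only) closest to saline, so results were also computed without both. Cxcl15, a chemokine made by lung epithelium, read 12784 to 32439 normalized counts in the 21 libraries, a check of the tissue label. A normalized count is the raw count divided by a size factor from 4 genes named in the study's methods, Sdha, Rpl19, Oaz1 and Eef1g, taken as their geometric mean. This mean was 1428 ± 443 raw counts (SD, n = 12) in saline lungs and 1015 ± 317 (SD, n = 9) in HDE lungs.

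Of the ligands, Cxcl12 differed little among the groups, and Cxcl16 stood higher in most HDE lungs. Cxcl12 read 844 (lowest), 1225 (median) and 1307 (highest) normalized counts in the 6 saline only lungs and 852, 986 and 1224 in the 6 saline + NNK lungs. In HDE only lungs it read 1167 and 1531 in run 1 and 972 and 1305 in run 2. In HDE + NNK lungs it read 1113, 1077, 1231 and 1155 in run 1 and 811 in run 2. The highest value of all was an HDE only lung and the lowest an HDE + NNK lung, and the exposures overlapped almost fully, with 1 of 9 HDE lungs above all saline lungs and 1 below them. The group means fell in the order HDE only (1244 ± 235), saline only (1131 ± 185), HDE + NNK (1077 ± 159.6) and saline + NNK (1028 ± 142, all SD), and no neighbours in that order differed by more than the larger SD.

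Cxcl16 read 465 (lowest), 599 (median) and 740.5 (highest) normalized counts in saline only lungs and 499.7, 534 and 622 in saline + NNK lungs. In HDE only lungs it read 732 and 1014 in run 1 and 1044 and 744 in run 2. In HDE + NNK lungs it read 691, 659, 839 and 502 in run 1 and 803 in run 2. The 2 highest lungs, both HDE only, came from different runs, 5 of 9 HDE lungs stood above every saline lung, and 1 HDE + NNK lung (run 1 lane 11) stayed inside the lower part of the saline range. Means were 883 ± 169 in HDE only, 699 ± 133 in HDE + NNK, 591 ± 100.2 in saline only and 546 ± 46.5 in saline + NNK (SD). The step from HDE only to HDE + NNK was the only one larger than the SD of both neighbours. All 6 saline lungs of run 1 (465 to 551) read below all 6 of run 2 (574 to 740.5), and HDE lungs averaged 739.5 in run 1 and 864 in run 2.

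Of the receptors, Cxcr4 was modestly higher in HDE lungs, and Cxcr6, before background was subtracted, was higher in nearly all of them. Cxcr4 read 227 (lowest), 263 (median) and 322 (highest) normalized counts in saline only lungs and 203, 269 and 298 in saline + NNK lungs. In HDE only lungs it read 281 and 356 in run 1 and 411 and 285 in run 2, and in HDE + NNK lungs 265, 313, 329 and 252 in run 1 and 333 in run 2. The exposures overlapped between 252 and 322, where 5 of 9 HDE lungs lay. Means ran from HDE only (333 ± 62.4) through HDE + NNK (299 ± 37.5) and saline only (265 ± 34.2) to saline + NNK (257 ± 39.4, all SD), with every step smaller than the larger SD of its neighbours.

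Cxcr6 lay near the background of the assay. Its raw counts ran from 20 to 98, which was 1.97 to 10.7 times the mean of the negative controls of the same library, and it exceeded that mean by more than 2 SD in all 21 libraries. It read 32.9 (lowest), 45.2 (median) and 57.5 (highest) normalized counts in saline only lungs and 29.9, 47.5 and 59.5 in saline + NNK lungs. In HDE only lungs it read 61.3 and 109 in run 1 and 71.0 and 35.2 in run 2, and in HDE + NNK lungs 96.6, 88.0, 66.2 and 76.2 in run 1 and 63.9 in run 2. All HDE lungs but one, the HDE only library of run 2 lane 12, stood above every saline lung before background was subtracted. The HDE only lungs of run 1 lanes 10 and 12 were among them. Yet they read 1.97 and 2.02 times their negative control mean, the lowest of the 21 libraries. A normalized count includes background, which the scaling multiplied by 1.36 and 2.37 in these lungs. With each library's negative control mean subtracted, the log2 ratio of Cxcr6 to Cxcr4 was -2.62 ± 0.54 in HDE lungs. In saline lungs that ratio was -3.09 ± 0.40 (SD). Before subtraction, mean normalized counts of Cxcr6 were 78.2 ± 14.1 in HDE + NNK, 69.2 ± 30.7 in HDE only, 46.9 ± 10.5 in saline + NNK and 44.4 ± 8.85 in saline only (SD). Unlike the other members, its highest group mean was that of HDE + NNK, but no neighbours in this order differed by more than the larger SD.

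**Figure D1:**
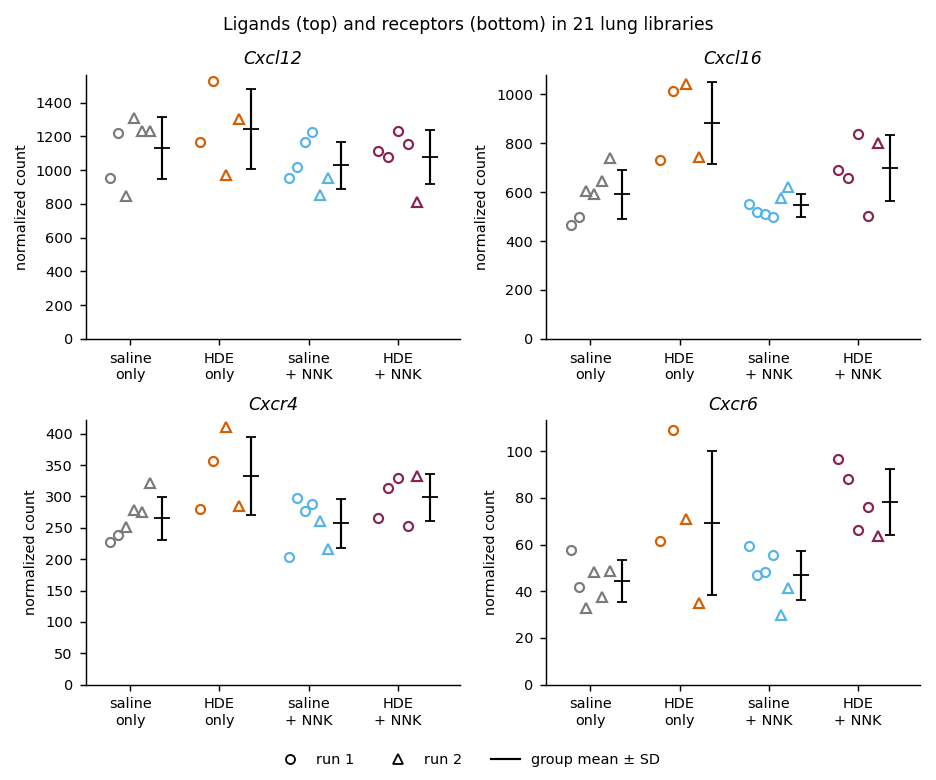
Normalized counts of the 4 genes (vertical axes, starting at 0) in each of the 21 libraries by group, with circles for run 1, triangles for run 2 and a bar for the group mean and SD. Cxcl12 spans 811 to 1531 in HDE lungs against 844 to 1307 in saline lungs, and 8 of 9 HDE lungs exceed every saline lung for Cxcr6 before background is subtracted.

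Averaged over the NNK groups, the log2 fold change of HDE over saline was 0.10 (SE 0.10) for Cxcl12, 0.47 (SE 0.10) for Cxcl16 and 0.27 (SE 0.10) for Cxcr4, or 1.07-, 1.38- and 1.21-fold. For Cxcr6, which missed the minimum mean raw count of 87 and was fitted among the 663 genes with a mean of at least 20, it was 0.68 (SE 0.17), or 1.60-fold. These values describe the contrast with which the members were chosen, and no p is given for them. For orientation, Cxcl16 and Cxcr4 were among the genes called higher (edgeR's quasi-likelihood test, adjusted p under 0.05), a call that 39.4% of the 388 tested genes received. Cxcr6 was called higher in its own fit, as were 40% of the 663 genes there. With shares of that size nothing is read from these calls. None of the 4 members separated the exposures without overlap, which 8.76% of the 388 genes did.

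Without NNK the log2 fold change of HDE over saline was 0.13 (SE 0.15) for Cxcl12, 0.58 (SE 0.15) for Cxcl16, 0.33 (SE 0.15) for Cxcr4 and 0.61 (SE 0.26) for Cxcr6. With NNK it was 0.07 (SE 0.14), 0.36 (SE 0.14), 0.22 (SE 0.14) and 0.74 (SE 0.23) in the same order. Single libraries moved these values. Without NNK, Cxcl12 was 0.018 without the run 1 lane 12 lung of HDE only and 0.24 without that of run 2 lane 11, Cxcr4 was 0.20 without the latter and 0.40 without that of run 1 lane 10, and Cxcr6 was 0.34 without that of run 1 lane 12 and 0.83 without that of run 2 lane 12. With NNK, Cxcl12 was 0.016 without the run 1 lane 9 lung of HDE + NNK and 0.15 without that of run 2 lane 9, and Cxcl16 was 0.28 without the former and 0.45 without that of run 1 lane 11. Over all 21 such fits Cxcl16 without NNK stayed between 0.49 and 0.66 and Cxcr6 with NNK between 0.64 and 0.82. The 3 genes other than Cxcr6 thus had the smaller value with NNK, and the tests of that difference are given with the interaction below. Cxcl16 was called higher without NNK, as were 30.2% of 388 genes (24.4% of 663 in the fit with Cxcr6, which was not called). Cxcr6 was called higher with NNK, as were 28.5% of 663 genes, and none of the other 3 genes was, against 29.9% of 388. Nothing is read from these calls either. In bulk RNA of this kind, more cells of a type and more RNA per cell cannot be told apart.

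How far HDE raised these genes depended on the scaling. After the scaling by 4 genes, the median log2 fold change over all 388 genes was 0.15, so Cxcl12 (0.10) lay slightly under the median gene and Cxcr4 (0.27) and Cxcl16 (0.47) lay above it. Scaled by the trimmed mean of M values (TMM), which places the median at -0.04, the log2 fold changes were -0.08 (SE 0.10) for Cxcl12, 0.30 (SE 0.12) for Cxcl16, 0.11 (SE 0.12) for Cxcr4 and 0.35 (SE 0.13) for Cxcr6. With all panel housekeeping genes they were 0.01, 0.40, 0.21 and 0.59. Without any scaling, where the median gene lay at -0.38, they were -0.42, -0.06, -0.25 and 0.13. The direction of Cxcl12, and without scaling or with positive control scaling also that of Cxcr4, therefore turned with the scaling, and Cxcl16 turned without scaling. The order of the fold changes, from Cxcr6 through Cxcl16 and Cxcr4 to Cxcl12, was the same under these scalings. A scaling moves all genes of a library together, so the kept order is not a separate result. Within run 1 the log2 fold changes were 0.19 (SE 0.12), 0.61 (SE 0.14), 0.28 (SE 0.14) and 0.68 (SE 0.18) for Cxcl12, Cxcl16, Cxcr4 and Cxcr6, and within run 2 they were -0.09 (SE 0.17), 0.45 (SE 0.14), 0.40 (SE 0.16) and 0.62 (SE 0.26). Leaving out any 1 library kept Cxcl16 between 0.42 and 0.52, Cxcr6 between 0.54 and 0.78, Cxcr4 between 0.21 and 0.31 and Cxcl12 between 0.04 and 0.15. Cxcr4 was 0.21 without HDE only of run 2 lane 11 and 0.26 without that of run 1 lane 12. It was 0.25 without HDE + NNK of run 1 lane 9 and also without saline + NNK of run 2 lane 2.

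**Figure D2:**
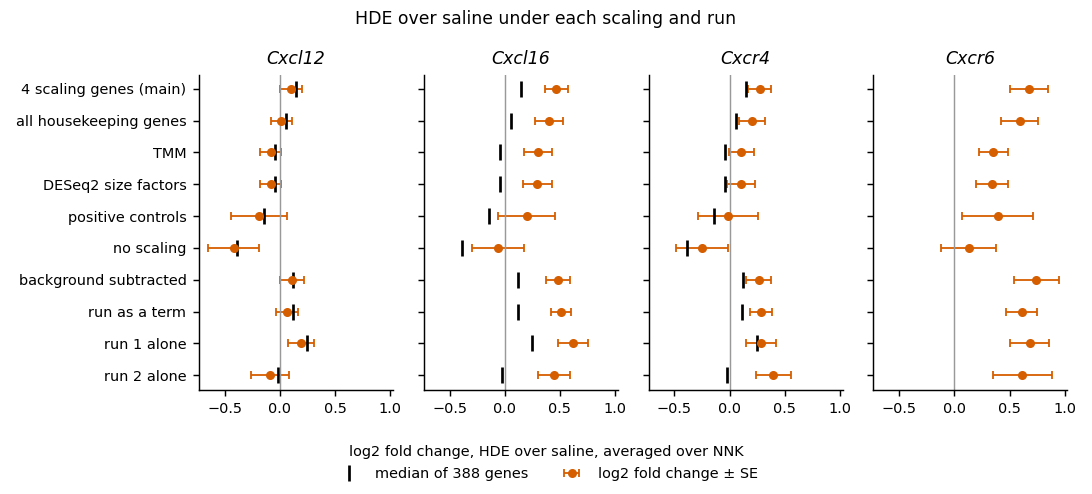
Log2 fold change of HDE over saline, averaged over NNK (horizontal axes), for each gene under 10 settings, with bars for the standard error and a black tick for the median of the 388 tested genes (not drawn for Cxcr6, which had its own fit). Points and ticks shift left together from the 4 scaling genes (Cxcl16 at 0.47) to no scaling (-0.06), and the tick shifts from 0.15 to -0.38 with them.

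Ratios of 2 raw counts within a library do not depend on the scaling. As each gene is read by its own probe pair, a ratio is not a ratio of molecules, and only its shift between groups is described. The log2 ratio of Cxcl16 to Cxcl12 was -0.57 ± 0.40 (SD, n = 9) in HDE lungs and -0.92 ± 0.28 (SD, n = 12) in saline lungs, a shift of 0.35. The shift was 0.36 within run 1, where 5 of 6 HDE lungs exceeded all 6 saline lungs, and 0.50 within run 2, where 2 of 3 did. The ratio of the receptors, Cxcr6 to Cxcr4, shifted by 0.40, from -2.53 ± 0.38 to -2.13 ± 0.49, with 3 of 9 HDE lungs above all saline lungs. That shift came to 0.43 in run 1 and 0.12 in run 2. The ligand ratio thus stood higher on average in HDE lungs in both runs, whatever the scaling. The receptor shift was near the SD of either exposure and smaller in run 2, where no HDE lung lay outside the saline range. A raw ratio is free of scaling but not of background. After subtraction of each library's negative control mean the receptor shift was 0.47, with 1 of 9 HDE lungs above all saline lungs and 1 below them.

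Within each pair the ligand did not gain on its receptor. The log2 ratio of Cxcl12 to Cxcr4 was 1.87 ± 0.37 in HDE lungs and 2.04 ± 0.21 in saline lungs, a difference of -0.17, which came to -0.08 in run 1 and -0.41 in run 2. The log2 ratio of Cxcl16 to Cxcr6 was 3.43 ± 0.55 against 3.66 ± 0.42, a difference of -0.23. It was -0.15 in run 1 and -0.03 in run 2. Both differences are smaller than the SD of either exposure, apart from run 2 for Cxcl12 to Cxcr4, where 2 of the 3 HDE lungs lay below all saline lungs. After subtraction of each library's negative control mean, the difference of Cxcl16 to Cxcr6 was -0.27.

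**Figure D3:**
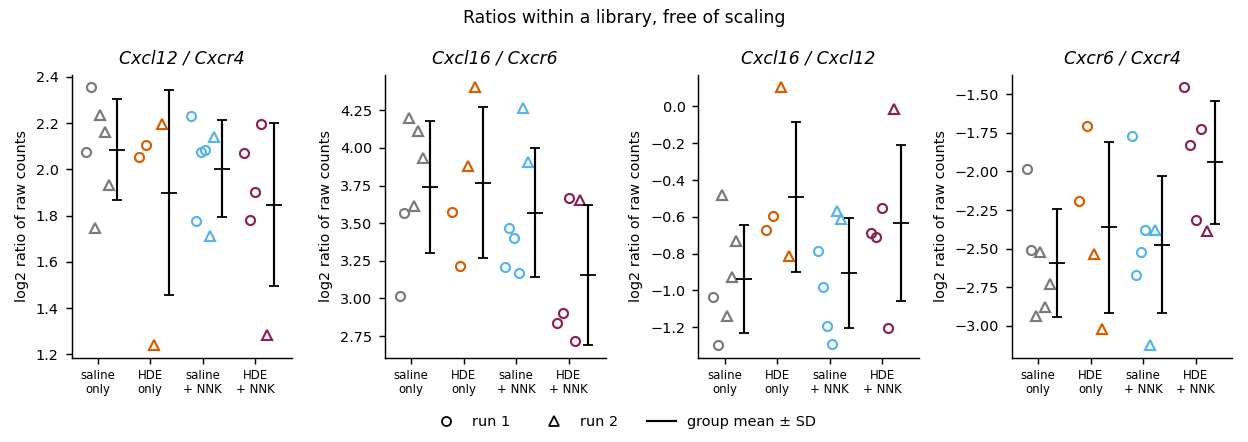
Log2 ratio of raw counts of 2 genes (vertical axes) in each of the 21 libraries by group, with circles for run 1, triangles for run 2 and a bar for the group mean and SD. The ratio of Cxcl16 to Cxcl12 has a mean of -0.57 in HDE lungs against -0.92 in saline lungs, and the ratio of Cxcl16 to Cxcr6 is set apart by run (3.31 against 4.01 in saline lungs of runs 1 and 2).

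NNK was tested because the rule for the members did not use it, and no member passed in any NNK contrast. In saline lungs the log2 fold change of NNK over no NNK was -0.14 (95% interval -0.42 to 0.14) for Cxcl12, -0.12 (-0.40 to 0.17) for Cxcl16, -0.05 (-0.32 to 0.22) for Cxcr4 and 0.07 (-0.40 to 0.54) for Cxcr6. In HDE lungs it was -0.20 (-0.53 to 0.12) for Cxcl12, -0.34 (-0.67 to -0.01) for Cxcl16, -0.16 (-0.48 to 0.16) for Cxcr4 and 0.19 (-0.35 to 0.74) for Cxcr6. All adjusted p-values were between 0.996 and 1.00 by edgeR's quasi-likelihood test, and the intervals exclude a 2-fold change for the 3 genes other than Cxcr6 in both exposures. For Cxcr6 they exclude a 2-fold change of the count only. That count lay near background and includes it, so the intervals set no such limit for Cxcr6 RNA. Cxcl16 in HDE lungs had an unadjusted p of 0.044 (edgeR) and the sixth smallest p among the 388 genes, 8 of which had an unadjusted p under 0.05. It read lower on average with NNK, 699 ± 133 against 883 ± 169 normalized counts, with the 5 HDE + NNK lungs between 502 and 839 and the 4 HDE only lungs between 732 and 1044. Without the lowest of them, the HDE + NNK library of run 1 lane 11, the log2 fold change was -0.24 (adjusted p = 0.96, edgeR). Averaged over the exposures the NNK difference of Cxcl16 was -0.23 (-0.44 to -0.01, adjusted p = 0.97, edgeR). Within runs the NNK difference of Cxcl16 in HDE lungs was -0.37 in run 1 and -0.16 in run 2. In saline lungs the sign was not the same in both runs, with 0.00, 0.11 and 0.20 in run 1 and -0.36, -0.11 and -0.25 in run 2 for Cxcl12, Cxcl16 and Cxcr4. Without scaling, where the median of all genes moved from 0.06 to 0.41 in saline and from 0.04 to 0.46 in HDE lungs, all 4 genes had positive NNK differences, and the 3 genes other than Cxcr6 stayed below that median.

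The HDE by NNK interaction, which asks whether the NNK difference is another in HDE lungs than in saline lungs, was -0.06 (95% interval -0.49 to 0.36) for Cxcl12, -0.22 (-0.65 to 0.21) for Cxcl16, -0.11 (-0.53 to 0.31) for Cxcr4 and 0.13 (-0.59 to 0.85) for Cxcr6. Adjusted p-values were all 1.00 by edgeR. Of all 388 genes, 0 passed for NNK in saline lungs, NNK in HDE lungs, NNK averaged over exposures or the interaction by edgeR (0% of 388 each), and 4, 8, 9 and 4 had an unadjusted p under 0.05. DESeq2 and limma also called 0 genes in the 4 contrasts. In simulated counts with these depths, 188 of the 388 genes were left unchanged and the others were given a change. The test recovered 90% of genes that changed 1.5-fold with NNK on average over exposures and 58% of those that changed 1.25-fold. In HDE lungs alone these shares were 62% and 20%, and in saline lungs alone 78% and 28%. For the interaction it recovered 74% of 2-fold, 36% of 1.5-fold and 16% of 1.25-fold changes. These shares are for the fit of 388 genes, which leaves out Cxcr6. With so many changed genes the adjustment is milder than where few change, so the shares can overstate recovery of a lone changed gene.

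**Figure D4:**
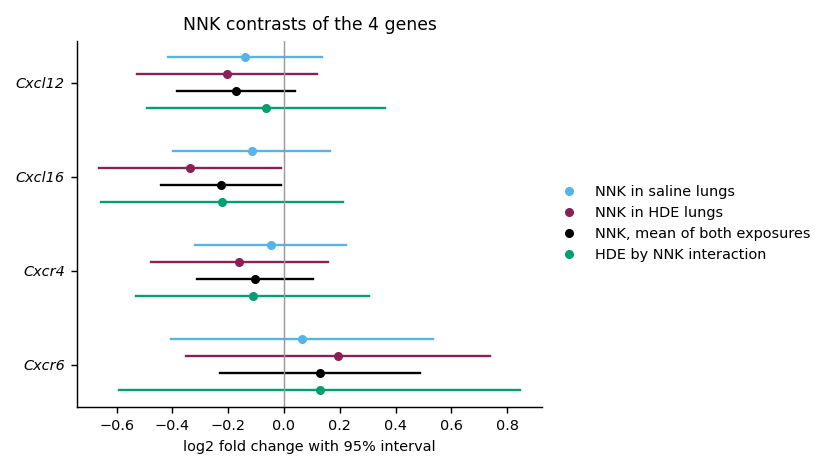
Log2 fold change of NNK over no NNK in saline lungs, in HDE lungs and on average, and the HDE by NNK interaction (horizontal axis), with 95% intervals, for each gene. The intervals include 0 except for Cxcl16 in HDE lungs (-0.67 to -0.01) and on average (-0.44 to -0.01), neither of which passed after adjustment.

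No difference of the ligand-to-receptor ratio with NNK passed. In HDE lungs the log2 ratio of Cxcl16 to Cxcr6 was 3.16 ± 0.46 with NNK (n = 5) and 3.77 ± 0.50 without (n = 4), a difference of -0.61 (exact permutation test, two-sided, p = 0.10, adjusted over 4 tests 0.41). In saline lungs the same ratio differed by -0.17 (exact permutation p = 0.50, adjusted 0.69). The log2 ratio of Cxcl12 to Cxcr4 differed by -0.08 in saline lungs (exact permutation p = 0.52, adjusted 0.69) and by -0.05 in HDE lungs (exact permutation p = 0.82, adjusted 0.82). The smallest p these designs allow is 0.0011 with 6 against 6 and 0.0079 with 5 against 4 lungs. Run and NNK were partly mixed in both exposures, since run 1 read 4 of the 6 saline + NNK but 2 of the 6 saline only lungs, and 4 of the 5 HDE + NNK but 2 of the 4 HDE only lungs. Within runs the difference of Cxcl16 to Cxcr6 in saline lungs turned to 0.021 in run 1 and 0.12 in run 2, and in HDE lungs it was -0.36 in run 1, while run 2 held too few HDE + NNK lungs to give a value. That of Cxcl12 to Cxcr4 was -0.17 and -0.09 in saline lungs of runs 1 and 2 and -0.09 in HDE lungs of run 1.

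Ligand and receptor levels were compared across lungs of the same exposure, so that the difference between exposures does not enter. In the 12 saline lungs Cxcl12 and Cxcr4 had Pearson's r = 0.53 (permutation p = 0.078, adjusted over 4 relations 0.31) and Spearman's rho = 0.62 (permutation p = 0.036, adjusted 0.14). Without the 2 lungs farthest from the median Cxcl12 level, r was 0.69 (permutation p = 0.031). In the 9 HDE lungs r was -0.17 (exact permutation p = 0.67) and rho -0.13 (exact permutation p = 0.74), and r was -0.57 without the 2 farthest lungs (exact permutation p = 0.18). Cxcl16 and Cxcr6 had r = -0.38 (permutation p = 0.22) and rho = -0.39 (permutation p = 0.21) in saline lungs, with r = -0.51 without the 2 farthest, and r = 0.07 (exact permutation p = 0.85) and rho = -0.08 (exact permutation p = 0.84) in HDE lungs, with r = 0.23 without the 2 farthest. After adjustment none of the 4 relations passed, with adjusted p of 0.31, 0.85, 0.45 and 0.85 for r. The negative r of Cxcl16 and Cxcr6 in saline lungs did not hold within runs, where r was 0.08 (n = 6) and 0.57 (n = 6). Within runs 1 and 2 Cxcl12 and Cxcr4 had r of 0.53 (n = 6) and 0.63 (n = 6) in saline lungs and 0.68 in the 6 HDE lungs of run 1, and run 2 held too few HDE lungs for a value.

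**Figure D5:**
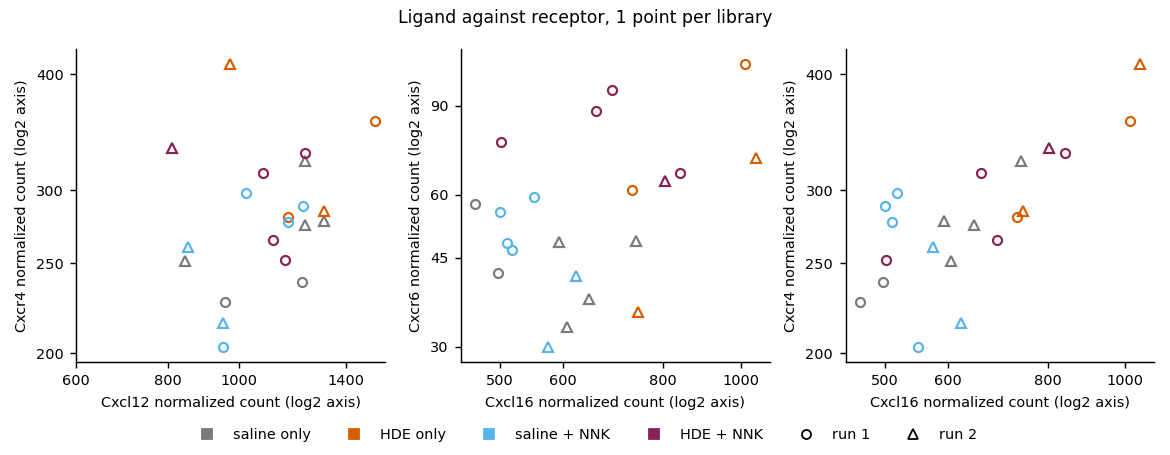
Normalized counts of a ligand (horizontal log2 axes) against a receptor (vertical log2 axes), 1 point per library, colored by group with circles for run 1 and triangles for run 2. Within saline lungs Cxcl12 and Cxcr4 have r = 0.53 and Cxcl16 and Cxcr6 r = -0.38, and the third panel shows Cxcl16 against Cxcr4 over all 21 libraries (r = 0.75).

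Across the panel, the tested gene most like Cxcr4 over the 21 libraries was Cxcl16, the ligand of the other pair, with r = 0.75, followed by Slamf7, a receptor of lymphocytes and plasma cells (0.72), and Hif1a, the oxygen-regulated transcription factor (0.70). With each group's mean subtracted, Cxcr4 was most like Slamf7 (0.69), Cxcl16 (0.59) and Mef2c, a transcription factor of muscle and B cells (0.54). Its own ligand Cxcl12 had r = 0.26 with it as measured and 0.11 with group means subtracted. Cxcl16 was most like Lamp2, a lysosome membrane protein (0.86), Clec4n, the myeloid lectin Dectin-2 (0.84), and Fcgr3, an Fc receptor (0.82), and with group means subtracted most like the scavenger receptor Colec12 (0.82), Lamp2 (0.78) and Clec4n (0.74). Cxcl12 was most like Tnfsf12, the cytokine TWEAK (0.70), Lrrn3 (0.60) and Il2rg, the shared cytokine receptor chain (0.59), and with group means subtracted most like Tnfsf12 (0.71), Clec4a2, a lectin of dendritic cells (0.69), and Lrrn3 (0.66). These coefficients are the highest among the 388 tested genes over 21 libraries, share the scaling and the runs, and are given without a test.

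The run was tested as a term beside the groups. Run 2 over run 1 was -0.20 (SE 0.11) in log2 for Cxcl12 (adjusted p = 0.15, edgeR), 0.24 (SE 0.10) for Cxcl16 (adjusted p = 0.070), 0.10 (SE 0.11) for Cxcr4 (adjusted p = 0.50) and -0.44 (SE 0.15) for Cxcr6 (adjusted p = 0.020, in its own fit, where 52.3% of 663 genes differed). By this term 28.4% of the 388 genes differed between runs, 15 higher and 95 lower in run 2. The difference of Cxcr6 was -0.13 (adjusted p = 0.72, edgeR) after each library's negative control mean was subtracted and -0.08 (adjusted p = 0.64, edgeR) with TMM scaling, beside negative controls at 24.3 counts in run 1 and 12.4 in run 2. Cxcl16 passed with TMM scaling (0.39, adjusted p = 0.0082, edgeR) and with all panel housekeeping genes (0.33, adjusted p = 0.042, edgeR). Cxcr6 no longer passed for the run when run 1 lane 12 (HDE only, -0.36) or run 2 lane 1 (saline + NNK) was left out (adjusted p up to 0.059, edgeR), and Cxcl16 passed without any 1 of HDE only run 1 lane 12, HDE only run 2 lane 12 or HDE + NNK run 1 lane 9 (up to 0.30). With the run as a term, HDE over saline was 0.51 for Cxcl16, 0.29 for Cxcr4 and 0.61 for Cxcr6.

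The groups were not balanced for sex, with 5 females and 1 male in saline only, 3 and 3 in saline + NNK, 1 and 3 in HDE only, and 3 and 2 in HDE + NNK. With sex as a term the average HDE fold change was 0.08 for Cxcl12, 0.50 for Cxcl16 and 0.24 for Cxcr4. Cxcr4 was then no longer among the genes called, but nothing is read from calls of this contrast. Sex is given only with the second table of counts, in which gene values under 87 were raised to 87, so Cxcr6 could not be compared. Males over females differed by 0.10 (SE 0.11) in log2 for Cxcl12, -0.11 (SE 0.12) for Cxcl16 and 0.13 (SE 0.11) for Cxcr4 (adjusted p = 0.98 each, edgeR), and 1 of 388 genes (0.258%) passed. Among HDE lungs Cxcl16 read 730.4 ± 78.5 normalized counts in 4 females and 821 ± 221 in 5 males, and among saline lungs 599.5 ± 79.0 in 8 females and 506 ± 9.35 in 4 males (SD).

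Of the other chemokines of the CXC and CX3C families, 12 were on the panel and 4 reached the minimum count. Cxcl13, which organizes B cells into follicles, rose with HDE from 72.3 ± 29.8 to 176 ± 85.5 normalized counts (log2 fold change 1.25, SE 0.26, adjusted p = 0.00037, edgeR). Cxcl14 (0.04), Cxcl15 (0.21) and the platelet chemokine Ppbp (-0.22) did not pass. The median over the 4 was 0.12, against 0.15 over all 388 genes, of which 39.4% were called higher and 10.1% lower. The other 8, among them the neutrophil chemokines Cxcl1, Cxcl2, Cxcl3 and Cxcl5 and the interferon-induced ligands of Cxcr3, had means under 87 counts and were not tested in this fit. The same held for 6 of the 7 other receptors, with Ccrl2 (-0.08) not passing. The fit with a mean of at least 20, which held Cxcr6, tested 11 other chemokines, of which 6 rose and 0 fell. It also tested 7 other receptors, of which 4 rose and 0 fell, beside 40% of its 663 genes called higher.

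Of 8 tested genes whose proteins are known to act on or with Cxcl12 or Cxcr4, 3 rose with HDE and 5 did not pass (median 0.07), beside 39.4% of all 388 genes called higher and 10.1% called lower. Those that rose were Itga4, the integrin subunit that Cxcr4 signaling activates (0.80, SE 0.12), Cd74, the receptor of Mif and partner of Cxcr4 (0.43, SE 0.10), and Hif1a, which drives both genes in hypoxia (0.42, SE 0.07). Adjusted p-values were 6.6e-06, 0.00068 and 1.4e-05 by edgeR, and Cd74 and Hif1a turned to -0.08 and -0.10 without scaling. Dpp4, the peptidase that inactivates Cxcl12, differed by -0.25 (SE 0.13, adjusted p = 0.12, edgeR). With TMM scaling the same 3 genes passed (0.64 for Itga4, 0.25 for Cd74 and 0.24 for Hif1a) and 3 others of the list fell, namely Dpp4 by 0.44, Itgb1 by 0.34 and Hmgb1 by 0.22 (adjusted p = 0.0015, 0.024 and 0.0053, edgeR). The proteins known to act on Cxcl16 that were on the panel, Ifng and Tnf, had means of 15.0 and 16.8 raw counts and could not be tested. Of 11 tested genes of signaling below the receptors, 3 rose and 8 did not pass (median 0.04), and with TMM scaling 1 rose and 4 fell. Pik3cd had the largest value (0.83, SE 0.20) and Jak2 the smallest of those that rose (0.30, SE 0.07). Jak2 and Jak3 (0.56, SE 0.21) turned to -0.22 and -0.07 without scaling and no longer passed with TMM scaling. NNK changed 0 tested genes of these lists by edgeR, with 0 at an unadjusted p under 0.05.

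The tested genes listed for the tissue-resident T and NK cells that carry Cxcr6 did not move one way. Of 3 tested, Il7r, the interleukin-7 receptor, rose from 79.9 ± 12.0 to 254 ± 99.4 normalized counts (log2 fold change 1.67, SE 0.20), and Itga1, an integrin subunit (-0.36, SE 0.15), and Il18r1, the interleukin-18 receptor (-0.36, SE 0.08), fell. Adjusted p-values were 3.9e-07, 0.043 and 0.00042 by edgeR. Leaving out 1 library left 2 to 3 of them called. Over all 388 genes, 39.4% were called higher and 10.1% lower. Itga1 and Il18r1 read 1043 and 939 normalized counts in saline lungs, against 67.6 for the T cell marker Cd3g and 45.7 for Cxcr6. Which cells they came from was not tested, so they are not read as a level of these cells. The other 8 of the list on the panel, Itgae and Cd69 among them, had means under 87 counts. The fit with a mean of at least 20 tested 9 of the list, of which 2 rose and 3 fell, beside 40% of its 663 genes called higher.

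Markers of several cell types differed between the exposures that the members are compared across. All 8 endothelial markers fell with HDE, with a summed level of 10355 to 13436 normalized counts in saline and 6269 to 12147 in HDE lungs, where 39 of all 388 genes (10.1%) were called lower. All 8 were lower in both runs and passed in run 2 alone, but Tie1 (-0.10), Vwf (-0.15), Cdh5 (-0.36) and Eng (-0.52) did not pass in run 1 alone (adjusted p = 0.75, 0.32, 0.14 and 0.074, edgeR). Tie1 did not pass with run as a term either (-0.40, adjusted p = 0.052, edgeR), nor without the library that carried the quality mark and that of run 2 lane 12 of HDE only (-0.39, adjusted p = 0.075, edgeR). Of 8 tested macrophage markers 7 rose and Marco fell, and their summed level over 9 markers was 2904 to 6486 in saline and 9825 to 47815 in HDE lungs. Most of that sum was Chil3, with a mean of 2211 in saline and 23901.5 in HDE lungs, so it mainly follows 1 gene. The others that rose did so by 1.25-fold (Csf1r) to 3.55-fold (Msr1). Of all 388 genes, 39.4% were called higher, a share to set beside this and the other marker lists. The single T cell marker above the minimum count, Cd3g, rose (0.67, SE 0.14), and the sum of 10 T cell markers was 199.6 to 409.9 in saline and 293 to 714.5 in HDE lungs, while that of 8 NK cell markers overlapped (183 to 514 and 171 to 482). All 3 tested B cell markers rose, as did S100a8, the 1 tested neutrophil marker. Of 6 mesenchymal markers Vim, Fn1 and Col3a1 rose and none fell, but Vim was the 1 of these with the same direction in both runs (0.52 in run 1 and 0.47 in run 2). Fn1 was 0.85 in run 1 and -0.25 in run 2, and Col3a1 was 0.52 and -0.05 and did not pass with TMM scaling (0.31, adjusted p = 0.15, edgeR). Col1a1 and Col4a1 were 0.48 and 0.68 in run 1, while in run 2 alone they fell by 0.54 and 0.82 (adjusted p = 0.023 and 0.0035, edgeR). Of epithelial markers 1 of 4 rose. Without scaling Csf1r among the macrophage markers, the 3 mesenchymal markers, S100a8 and the epithelial Muc1 turned to values between -0.20 and -0.01. Of the T cell markers 8 of 10 and of the NK cell markers 7 of 8 were at or under the background limit in at least 1 library, and no marker was at 0. Their part in the values of Cxcl12, Cxcl16, Cxcr4 and Cxcr6 was not tested.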

How the data were processed

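RNA from 21 left lungs was counted on an immune panel of 770 genes. The authors deposited raw counts per probe from nSolver 4.0, not normalized, and a second table of the same counts in which values under 87 were raised to 87 (8289 values), which alone carries sex. Columns of the raw table name the group but not the animal. Counts were scaled here by 4 genes (Sdha, Rpl19, Oaz1 and Eef1g, geometric mean). The 388 genes averaging 87 raw counts or more were tested with edgeR 4.0.16 (robust quasi-likelihood, 4 groups in 1 fit, R 4.3.3) with Benjamini-Hochberg adjustment at 0.05. Cxcr6 was fitted among 663 genes with a mean of at least 20. DESeq2 1.42.0, limma 3.58.1 and other scalings, minimums, runs and libraries left out were alternatives. Permutation tests used scipy 1.17.1 with 100000 resamples or exact enumeration. The test was checked on simulated counts. The number of animals limits the precision. Named genes were the members, the 3 most like genes of each tested member, and members of the pathway and marker lists. Members and lists were chosen with earlier results of these data known.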

Additional observations from a re-analysis of the deposited data

How the results depend on the processing

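Of the 3 tested members, 2 were called for HDE on average, 1 without NNK and 0 with NNK. The average count was 1 with TMM scaling, all housekeeping genes, DESeq2, background subtraction, run 1 alone, run 2 alone or sex as a term, and 0 with positive control scaling or no scaling. Without NNK it was 0 with TMM, positive controls, no scaling, DESeq2 or run 2 alone, and with NNK it was 1 with run as a term. Leaving out 1 library gave 1 to 2, 1 to 2 and 0 to 1 members. Calls of members for HDE are counted only to show how they move with the processing, and nothing is read from them. Cxcr4 turned to -0.010 with positive controls and -0.25 without scaling, and Cxcl16 to -0.062 without scaling. The genes called for HDE, 192 of 388 (153 higher, 39 lower), were 86 with positive controls (55 higher, 31 lower), 112 with at least 87 counts in every library, 303 with a mean of at least 20, 299 with no minimum, and 174 to 199 without 1 library. The split was 117 to 108 with TMM, 139 to 71 with all housekeeping genes, 48 to 121 without scaling and 120 to 113 with DESeq2.

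For NNK, positive control scaling gave 0.36, 0.47 and 0.39 in saline lungs for Cxcl12, Cxcr4 and Cxcl16, 0.22 and 0.15 in HDE lungs for Cxcl12 and Cxcr4, and 0.29, 0.31 and 0.19 on average for Cxcl12, Cxcr4 and Cxcl16. Without scaling these were 0.21, 0.29 and 0.24 in saline lungs, 0.22, 0.27 and 0.084 in HDE lungs, and 0.22, 0.28 and 0.16 on average. In run 1 alone they were 0.0036, 0.20 and 0.11 in saline lungs and 0.035 on average for Cxcr4. Cxcr6 in saline lungs was -0.038 with TMM, -0.055 with DESeq2, -0.10 with run as a term, -0.25 in run 2 alone and -0.00050 without 2 doubted libraries. Cxcr6 in HDE lungs was -0.015 in run 1 alone and -0.019 without the doubted libraries, and on average -0.014, -0.020 and -0.0096 with run as a term, in run 2 alone and without the doubted libraries. The interaction of Cxcl12 was 0.012 without scaling, 0.031 without the doubted libraries and 0.010 with sex as a term, that of Cxcr4 was 0.18 in run 2 alone, and that of Cxcr6 -0.092 in run 1 alone and -0.018 without the doubted libraries. Leaving out 1 library gave -0.094 to 0.018 (Cxcr4) and -0.015 to 0.17 (Cxcr6) for NNK in saline lungs, -0.019 to 0.47 (Cxcr6) in HDE lungs, and -0.17 to 0.050, -0.19 to 0.012 and -0.082 to 0.40 for the interaction of Cxcl12, Cxcr4 and Cxcr6. Run 2 over run 1 was -0.30 for Cxcr4 and -0.17 for Cxcl16 with positive controls, and 1 member was called with TMM, all housekeeping genes or positive controls, and 0 to 1 without 1 library.

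Of the other chemokines, 1 was called, against 2 with TMM, all housekeeping genes, no scaling, DESeq2 or background subtraction, 0 with at least 87 in every library, and 6 with a mean of at least 20 or no minimum. Of the other receptors 1 was called with TMM, no scaling or DESeq2, and 4 with a mean of at least 20 or no minimum. Of proteins acting on Cxcl12 or Cxcr4, 6 were called with TMM (3 lower), 0 with positive controls and 7 with DESeq2 (4 lower). Of signaling genes, 5 were called with TMM (4 lower), all housekeeping genes (2 lower) or run 1 alone (1 lower), 1 with positive controls or at least 87 in every library, 6 with DESeq2 (5 lower) and 0 in run 2 alone. Of tissue-resident cell genes 5 were called with a mean of at least 20 or no minimum. The ratio of Cxcl16 to Cxcr6 with NNK in saline lungs was 0.021 in run 1 and 0.12 in run 2, and leaving out 1 library moved that of Cxcl12 to Cxcr4 in HDE lungs from -0.27 to 0.088. Unscaled r was 0.92 for Cxcl12 and Cxcr4 in saline lungs, 0.77 in HDE lungs and 0.70 for Cxcl16 and Cxcr6 in saline lungs. For Cxcl12 and Cxcr4 in HDE lungs r was 0.18 with TMM, 0.21 with all housekeeping genes, 0.68 in run 1 alone and -0.51 to 0.074 without 1 library. For Cxcl16 and Cxcr6 r was 0.083 and 0.57 in saline lungs of runs 1 and 2, and -0.21 to 0.18 in HDE lungs without 1 library. Causes were not tested.

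Replicate numbers only name samples (9 of 21 correlated best with their own). With the replicate block, 175 genes were called for HDE, 1 member was called for HDE with NNK, and males over females was -0.043 for Cxcl12. Depth limits Cxcr6 most (20 to 98 raw counts).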
